A study of Mus musculus with 18 samples.

Results

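Mitochondrial ribosomal proteins are the nucleus-encoded protein subunits of the ribosome inside mitochondria. Their transcripts were measured by bulk RNA sequencing of mouse retinal pigment epithelium (RPE), the pigmented cells that support the photoreceptors. Members were chosen by symbol alone: rows of the count table that start with Mrpl or Mrps and a digit, without "-ps", and with a mean of at least 10 counts over the 18 libraries. Of 78 rows with such a symbol among 21859 rows of the table, 77 met the rule, 48 with Mrpl and 29 with Mrps symbols. All 77 were also kept by the filter on low counts.

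The Young group held 7 libraries of RPE from young mice, and the Old group 4 libraries of RPE from old mice without a vector. The Old control group held 3 libraries from old mice given AAV2-tTA, an adeno-associated virus that carries the tetracycline-controlled transactivator. The Old OSK group held 4 libraries from old mice given AAV2-tTA with TRE-OSK, in which the transactivator's target promoter drives Oct4, Sox2 and Klf4. Both vector groups therefore carried tTA, and no young mice with a vector entered the comparisons. Ages, doses, the promoter of tTA and the number of animals in a library are not given in the sources used here, so p-values measure the spread between libraries, which may be partly technical.

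Mitochondria keep a small genome that encodes core subunits of the respiratory chain. The mitoribosome translates those messages. Its RNAs come from the mitochondrial genome, whereas every protein is made from a nuclear gene, translated in the cytosol and imported. Many of the proteins descend from bacterial ribosomal proteins, and others were added during the evolution of mitochondria. The RPE is known for its dependence on mitochondrial respiration, which is thought to leave glucose for the photoreceptors it supports.

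Library totals lay between 18104828 and 32348136 counts, and the members took 43598 to 82017 counts of a library. RPE markers were present throughout: Rpe65, the retinoid isomerase, ranged from 1189 to 7341 CPM (counts scaled to a common library size), although Best1 ranged only from 0.400 to 2.57. The summed CPM of 12 RPE markers was 41346 to 66381 in Young, 27848 to 48008 in Old, 21095 to 62894 in Old control and 16266 to 30442 in Old OSK. The 12 rod markers summed to 455 to 3442, 2429 to 8218, 1910 to 20337 and 3207 to 17077 CPM in the same order, and the 12 macrophage and microglia markers to 504 to 690, 774 to 1293, 950 to 1188 and 865 to 1078. Of these last markers Csf1r (136 to 620 CPM) and Lyz2 (23.5 to 476) reached the highest levels, so their sum is weighted towards them. Old replicate 4 and Old control replicate 2 lay apart from their groups: on the first principal component of all genes they scored 73.2 and 61.8, within the 45.7 to 96.0 of the Old OSK libraries. In bulk tissue, fewer cells of a type and less RNA per cell cannot be told apart, and the part of these markers in the results on the members was not tested.

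The promoters of 4 members are shown because these members moved most between the groups, 2 towards higher and 2 towards lower levels in old tissue with OSK. Each stretch runs from 120 bases before to 30 bases after the RefSeq start on GRCm38.p6, on the plus strand. Capitals mark the letters CCGGAAG or their reverse complement, the core that ETS factors such as the nuclear respiratory factor GABP recognise. Mrpl52 is at chr14:54426789-54426938, Mrpl23 at chr7:142532912-142533061, Mrps6 at chr16:92058216-92058365 and Mrpl58 at chr11:115403632-115403781.
Mrpl52: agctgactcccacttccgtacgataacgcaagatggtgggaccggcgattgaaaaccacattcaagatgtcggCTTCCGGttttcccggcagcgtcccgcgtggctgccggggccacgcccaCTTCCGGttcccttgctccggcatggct
Mrpl23: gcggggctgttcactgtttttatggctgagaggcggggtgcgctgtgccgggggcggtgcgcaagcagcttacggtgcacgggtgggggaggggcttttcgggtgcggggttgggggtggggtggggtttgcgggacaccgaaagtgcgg
Mrps6: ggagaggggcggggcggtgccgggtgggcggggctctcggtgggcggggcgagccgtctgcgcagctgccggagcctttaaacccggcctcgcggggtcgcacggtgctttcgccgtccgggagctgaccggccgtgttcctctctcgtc
Mrpl58: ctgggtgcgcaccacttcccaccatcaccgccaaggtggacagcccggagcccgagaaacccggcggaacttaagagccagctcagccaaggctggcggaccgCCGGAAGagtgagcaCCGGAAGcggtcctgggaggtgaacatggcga
Mrpl52 and Mrpl58 each hold 2 such letter runs, and they moved in opposite directions. Mrpl23 and Mrps6 hold none in these stretches, and they too moved in opposite directions. These 4 were picked for their movement, so no relation between the letters and direction can be read from them, and none was tested.

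A RefSeq promoter window of 300 bases (250 before and 50 after the start) was matched for 68 of the 77 members and for 12509 tested genes. Windows were searched on both strands for 3 letter runs. CCGGAAG was in the windows of 25 members (36.8%) and in 16.9% of the windows of all tested genes. GCGCATGCG, a core of the nuclear respiratory factor NRF1 motif, was in 7 members (10.3%) against 3.44%. AAGATGGC, a core of the YY1 motif, was in 12 members (17.6%) against 4.42%. Any of the 3 was in 37 members (54.4%) against 22.9%, and the ETS and YY1 runs can overlap by AAG. These are matches of letters, not sites of binding. In Old OSK against Young the median log2 fold change was 0.10 over the 25 members with CCGGAAG and 0.05 over the 43 without. It was 0.047 with and 0.054 without GCGCATGCG, and -0.09 with and 0.06 without AAGATGGC. In Old OSK against Old control the medians with and without CCGGAAG were -0.06 and -0.10. They were -0.06 and -0.08 for GCGCATGCG and -0.15 and -0.07 for AAGATGGC, and none of these differences was tested.

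Levels can be compared between genes only per length, here as CPM per kilobase of the median coding transcript in GENCODE. On that scale the members spanned 2.69 to 118.5 in Young, with a median of 23.7. The highest level in Young was that of Mrps18a, at 118.5 ± 15.1 (SD, n = 7), followed by Mrps21 at 96.8, Mrps6 at 92.1 and Mrps23 at 82.6. Mrps18a carries an S symbol but sits in the large subunit. Its place depends on the length used: it ranked 1 per median transcript and 16 per merged exon length. The lowest levels were those of Mrpl35 at 2.69, a protein of the large subunit core, and Mrps30 at 3.48, another S symbol of the large subunit. Medians over the members per kilobase were 23.6 in Old, 23.7 in Old control and 23.5 in Old OSK.

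**Figure D1:**
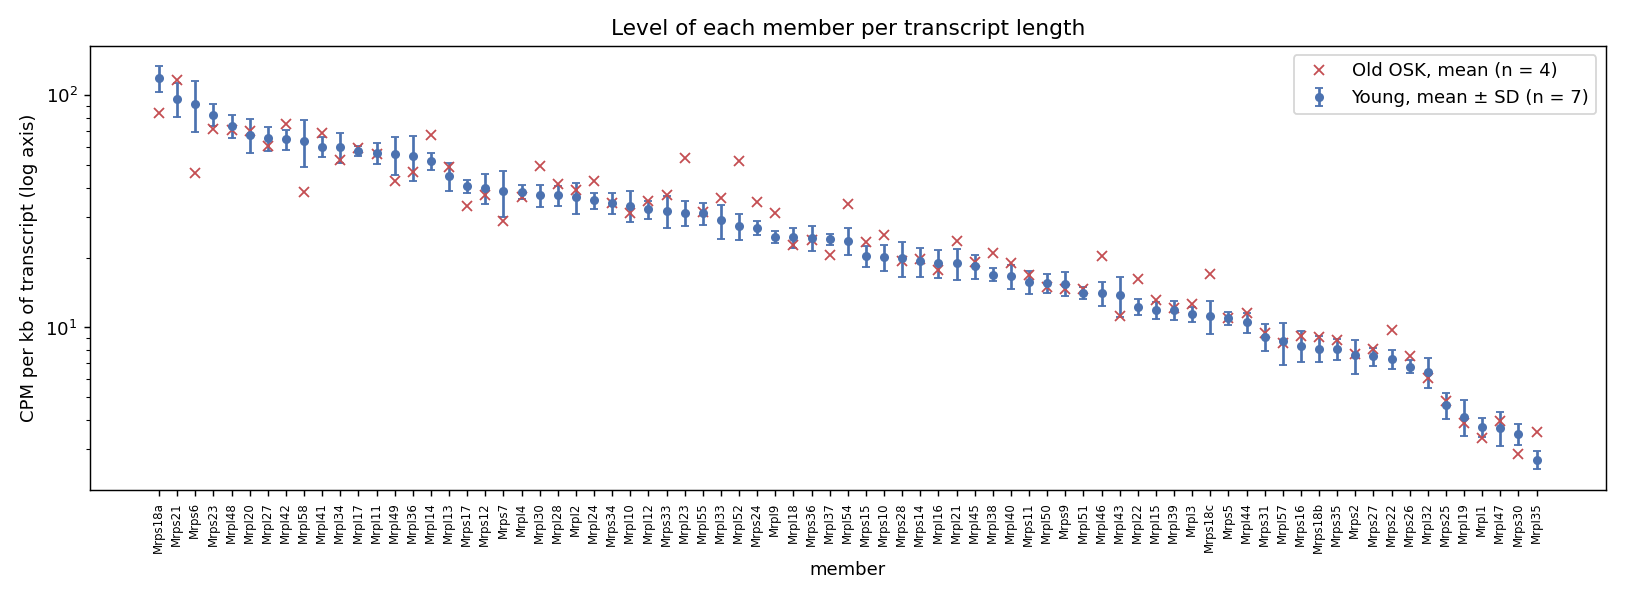
Mean CPM per kilobase of transcript (log axis) of each of the 77 members, ordered by the Young mean, with SD bars for Young (n = 7) and crosses for the Old OSK mean (n = 4). Levels in Young run from 118.5 for Mrps18a to 2.69 for Mrpl35, and the crosses leave the order largely in place, with Mrps6 and Mrpl58 below and Mrpl52 and Mrpl23 above their Young values.

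The members varied little between libraries. Their median SD of log2 CPM over the 18 libraries was 0.19, against 0.37 over all 15944 genes tested, which include genes with lower counts. The steadiest were Mrpl17 (SD 0.12), Mrpl12 (0.12) and Mrps5 (0.12). Mrpl12 belongs to the stalk that recruits translation factors and also binds the mitochondrial RNA polymerase. It measured 42.5 ± 3.71 CPM in Young (n = 7), 44.4 ± 3.58 in Old (n = 4), 45.3 ± 2.86 in Old control (n = 3) and 46.0 ± 3.83 in Old OSK (n = 4). The least steady were Mrps6 (SD 0.47), Mrpl58 (0.43) and Mrpl52 (0.41).

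Together the members took 0.216 to 0.243% of all counts in Young (median 0.220%), 0.237 to 0.254% in Old, 0.256 to 0.261% in Old control and 0.241 to 0.264% in Old OSK. Young overlapped Old and Old OSK, and lay below Old control. This share is of unscaled library totals and is weighted towards the abundant members. The log2 CPM below also carry a scaling factor per library, with group means of 0.951 in Young, 1.02 in Old, 1.02 in Old control and 1.07 in Old OSK. The parts of weighting and scaling in the difference between these measures were not tested. On the log2 scale, where each member counts equally, the mean over members was 4.68 ± 0.10 in Young, 4.73 ± 0.06 in Old, 4.82 ± 0.08 in Old control and 4.75 ± 0.09 in Old OSK, and all 4 groups overlapped.

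**Figure D2:**
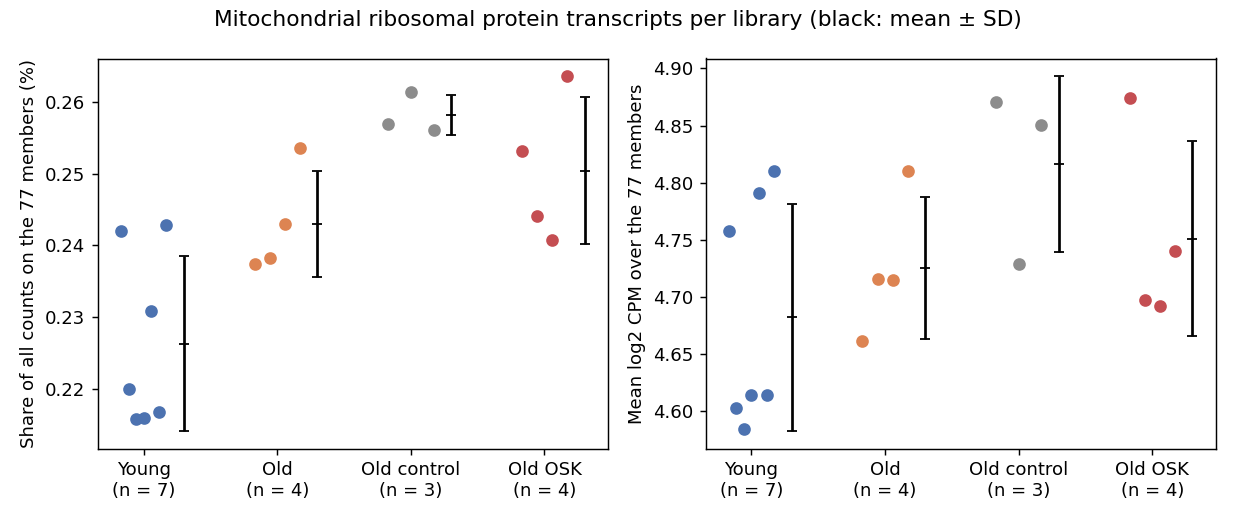
Left, the share of all counts on the 77 members in each library (%); right, the mean log2 CPM over the 77 members; black marks give the mean and SD of each group. The share was 0.216 to 0.243% in Young and 0.256 to 0.261% in Old control, while the means on the log2 scale overlapped between groups.

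With age, the transcripts of the mitoribosome had fold changes near 1 as a set, and 1 member passed the test. Mrpl52, a large-subunit protein without a bacterial counterpart, was higher in Old. Log2 fold changes and their standard errors come from edgeR's quasi-likelihood fit of all 15944 genes, and a gene is called when its Benjamini-Hochberg adjusted p over all genes is under 0.05. By that rule 1 of 77 members was called in Old against Young, while 9.56% of all genes were called (861 higher, 663 lower). Without adjustment 7 members (9.09%) had a p under 0.05, below the 29.0% of all genes that did. The members' median log2 fold change was 0.03, with quartiles of -0.05 and 0.13 and a range of -0.40 to 0.49. Over all genes the median was -0.004, with quartiles of -0.20 and 0.37. All 77 members lay within 0.5 of 0 on the log2 scale, and 11561 of all 15944 genes did.

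Mrpl52 measured 9.39 to 13.3 CPM in Young, with a median of 11.2. The Old libraries 1 to 4 gave 13.7, 14.2, 16.3 and 20.1 CPM. Every Old library was above every Young library, and Old replicate 4 was the highest. The means were 16.1 ± 2.94 (SD, n = 4) and 11.4 ± 1.45 (n = 7). On the log2 scale they differed by 0.49, with an SE of 0.13 and an adjusted p of 0.0296 in edgeR. The call remained in 6 of the 11 fits that left out 1 library, where the adjusted p ran from 0.0168 to 0.166. It was lost without Young replicate 4, 5 or 6 and without Old replicate 3 or 4, with the lowest estimate (0.37) without Old replicate 4. It was also lost with the letter M in library names as a covariate (0.46, adjusted p = 0.0795). That letter is in 6 library names, none of them Old, and its meaning is not stated in the labels.

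The next members by p did not pass in edgeR. Mrpl23, a protein near the exit of the nascent chain tunnel, had a log2 fold change of 0.38 (SE 0.12, adjusted p = 0.0594). It ranged from 18.2 to 25.6 CPM in Young, with a median of 21.3, and gave 25.1, 25.1, 25.3 and 36.7 CPM in Old. The 3 lower ones overlapped the Young range, so the difference rests much on Old replicate 4. Without it the log2 fold change was 0.22 (adjusted p = 0.324). DESeq2 called Mrpl23 (adjusted p = 0.0304), as did edgeR without Old replicate 1 (0.0470) or Young replicate 2 (0.0494). Mrpl46, a large-subunit protein special to mitochondria, gave 19.2, 18.8, 16.7 and 22.9 CPM in Old against 13.5 to 17.9 (median 15.8) in Young, a log2 fold change of 0.29 (SE 0.11, adjusted p = 0.106). Mrpl9 and Mrpl38 had 0.31 (adjusted p = 0.113) and 0.19 (adjusted p = 0.124). Mrpl9 had 0.16 without Old replicate 4 and was called without Old replicate 1 (0.43, adjusted p = 0.0204).

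On the lower side the lowest p belonged to Mrps6, a small-subunit protein with a bacterial counterpart. It ranged from 56.8 to 106 CPM in Young, with a median of 71.5, and gave 61.5, 69.9, 60.4 and 44.6 CPM in Old. The groups overlapped except for Old replicate 4, which was also the lowest of the Old libraries in summed RPE markers. The log2 fold change was -0.40 (SE 0.19, adjusted p = 0.178). Mrpl43, Mrpl49, Mrpl18 and Mrps23 had log2 fold changes of -0.29, -0.24, -0.13 and -0.15, and none passed. Part of Mrps6 shares exon bases on its own strand with Slc5a3 (10.4%) and Gm49711 (19.9%), so reads there cannot be assigned to 1 gene.

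By position in the particle the medians of the age differences lay close together. The median log2 fold change was 0.05 over 30 large-subunit proteins with a bacterial counterpart and -0.01 over 20 large-subunit proteins without one. It was 0.04 over 16 small-subunit proteins with a counterpart and 0.03 over 10 without. The only call, Mrpl52, was in the second of these 4 groups. Mrps36, a component of 2-oxoglutarate dehydrogenase that is not part of the mitoribosome despite its symbol, had 0.11 (adjusted p = 0.584).

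Old OSK against Old control asks what differs when the vector carries OSK. No member passed: 0 of 77 were called by edgeR and 0 by DESeq2, and 9 (11.7%) had an unadjusted p under 0.05 in edgeR, below the 26.3% of all genes that did. Of all genes, 0.728% were called (116 genes, 65 higher and 51 lower). With replicate number as a block 461 genes and 0 members were called. The members' median log2 fold change was -0.07, with quartiles of -0.17 and 0.03 and a range of -0.62 to 0.44. The median of all genes was -0.03. Below 0 were 49 members and above it 28.

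Mrpl52 again had the lowest p on the higher side. It gave 14.7, 18.3 and 15.2 CPM in Old control and 25.9, 22.0, 18.9 and 20.5 CPM in Old OSK. Every Old OSK library was above every Old control library, and the nearest pair was 18.3 and 18.9. The log2 fold change was 0.44 (SE 0.16, adjusted p = 0.113). Mrpl23 gave 27.2, 33.1 and 28.0 CPM in Old control and 39.7, 41.5, 32.5 and 35.6 in Old OSK. Old control replicate 2 exceeded Old OSK replicate 3, and the log2 fold change was 0.34 (SE 0.15, adjusted p = 0.165). Mrpl22, which lines the exit tunnel, gave 10.8, 9.47 and 10.6 CPM in Old control and 13.2, 11.2, 11.2 and 11.3 in Old OSK. The groups did not overlap, and the log2 fold change was 0.19 (adjusted p = 0.351), or 0.09 without Old OSK replicate 1.

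Mrpl14, a large-subunit protein with a bacterial counterpart, gave 31.3 to 37.1 CPM in Old control (n = 3) and 62.5, 34.8, 43.8 and 33.1 in Old OSK. The groups overlapped, and Old OSK replicate 1 was far above the rest. The log2 fold change of 0.37 was 0.11 without that library (adjusted p = 0.686). Mrpl24 had 0.19. Of the exon bases of Mrpl14 and Mrpl24, 11.2% and 26.3% are shared with Tmem63b and Rrnad1.

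Mrpl11, at the base of the factor-binding stalk, had the lowest p on the lower side. It gave 46.5, 43.5 and 44.8 CPM in Old control and 40.8, 34.5, 34.8 and 38.9 in Old OSK. The groups did not overlap, and the log2 fold change was -0.27 (SE 0.10, adjusted p = 0.115). Old OSK values lay near those of Young, at 32.8 to 43.3 CPM, and of Old without a vector, at 36.4 to 41.9 CPM.

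Mrpl58, Mrps6 and Mrpl36 had the largest negative estimates, and their Old control libraries disagreed with each other. Mrpl58, also known as ICT1, is a peptidyl-tRNA hydrolase that became a subunit of the large particle and can release stalled chains. It gave 195, 90.5 and 160 CPM in Old control and 122, 76.7, 90.6 and 96.9 in Old OSK. Old control replicate 2 lay within the Old OSK range, and the other 2 control libraries lay above it. The log2 fold change was -0.62 (SE 0.25, adjusted p = 0.134).

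Mrps6 gave 68.8, 38.9 and 66.4 CPM in Old control and 42.1, 33.8, 36.8 and 44.8 in Old OSK, a log2 fold change of -0.56 (SE 0.23, adjusted p = 0.142). Mrpl36, a small protein of the large-subunit core, gave 64.5, 31.9 and 47.9 CPM in Old control and 37.9, 29.9, 33.9 and 31.9 in Old OSK, a log2 fold change of -0.53 (SE 0.20, adjusted p = 0.128). Mrps17 of the small subunit gave 41.1, 28.8 and 32.0 CPM in Old control and 29.0, 28.4, 28.5 and 27.3 in Old OSK, with -0.26 (adjusted p = 0.141). In each of these 4 genes replicate 2 was the lowest control library.

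Old control replicate 2 also had the lowest RPE marker sum of its group (21095 CPM) and the highest rod sum (20337 CPM). Without it 9 of the 77 members were called lower and 0 higher in Old OSK. In the same fit 2881 of all genes were called in either direction, a larger share than that of the members. The 9 included Mrpl36 (log2 fold change -0.78), Mrpl58 (-0.91), Mrps17 (-0.40) and Mrps6 (-0.81). With Old replicate 4 left out as well, 9 members were called lower and 2 higher, Mrpl52 (0.52) and Mrpl23 (0.41), among 3729 genes. Here too the share of all genes called was larger than that of the members. Without Old control replicate 1 the same 4 estimates were smaller in size, at -0.26 for Mrpl36, -0.38 for Mrpl58, -0.10 for Mrps17 and -0.42 for Mrps6, and 0 members were called. The number of members called and the size of these estimates therefore depend on which control libraries are in the fit.

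**Figure D3:**
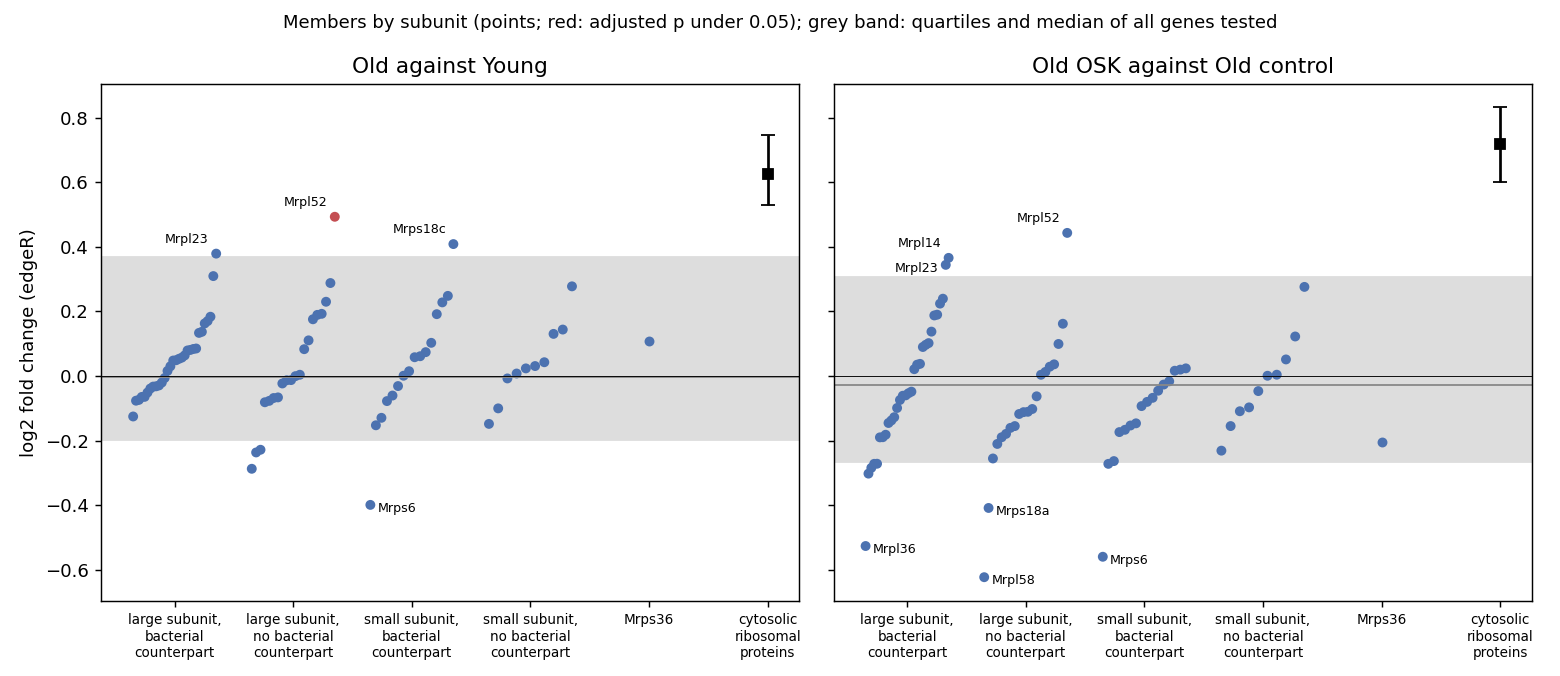
Log2 fold change of each member by subunit and by whether a bacterial counterpart exists, in Old against Young (left) and Old OSK against Old control (right). Red marks an adjusted p under 0.05, which is Mrpl52 on the left alone; the grey band and line give the quartiles and median of all genes tested, and the square and bars the median and quartiles of 76 cytosolic ribosomal protein genes, at 0.63 and 0.72.

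Old control against Old compares old RPE with and without the tTA vector. None of the 15944 genes was called by edgeR (0%) or DESeq2, so 0 of 77 members were. Without adjustment 3.74% of all genes (596) and 1.30% of the members (1) had an edgeR p under 0.05. The members' median log2 fold change was 0.12, with 63 above 0, and the median of all genes was 0.04. The lowest p was that of Mrpl41, a large-subunit protein special to mitochondria. It gave 34.4, 34.3, 33.6 and 39.1 CPM in Old and 41.8, 44.0 and 45.5 in Old control. The groups did not overlap, and the log2 fold change was 0.31 (SE 0.10, adjusted p = 0.900). Old OSK libraries gave 41.1, 41.1, 37.2 and 41.9 CPM. The naming rule takes the 2 lowest p in each direction, which also gave Mrps33 on the higher side (0.32) and Mrps18b (-0.39) and Mrpl9 (-0.20) on the lower side, and none passed.

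Old OSK against Young was added after the values were seen. It mixes age, vector and OSK, which cannot be told apart in it, and it shares libraries with the comparisons above. It called 23 of 77 members, 16 higher and 7 lower, beside 46.4% of all genes (3996 higher, 3405 lower). The members' share of 29.9% was below that background. Their median log2 fold change was 0.05, against 0.06 for all genes.

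Among the large-subunit proteins Mrpl52 rose by 0.93 on the log2 scale (SE 0.13, edgeR adjusted p = 8.27e-05), or 1.91-fold, and Mrpl23 by 0.79 (SE 0.12, adjusted p = 0.000182). All 4 Old OSK libraries were above all 7 Young libraries for both. Mrpl46 rose by 0.53, Mrpl54 by 0.52, Mrpl30 by 0.41, Mrpl22 by 0.41, Mrpl35 by 0.40 and Mrpl38 by 0.30. Among the small-subunit proteins Mrps18c rose by 0.61, Mrps22 by 0.42, Mrps24 by 0.37 and Mrps10 by 0.31. The calls of Mrpl52, Mrpl23 and the other 6 of these large-subunit proteins remained in all 11 fits that left out 1 library. In the 11 other alternatives Mrpl35 kept its call in 9, and Mrpl22 and Mrpl30 each in 10. Mrpl52, Mrpl23, Mrpl46, Mrpl54 and Mrpl38 kept theirs in all 11. Without Old OSK replicate 1 the calls of Mrps18c, Mrps24, Mrps10 and Mrps22 were lost, and that of Mrps22 also without Old OSK replicate 4. Of the 11 other alternatives, Mrps24 kept its call in all 11, Mrps18c in 10, and Mrps10 and Mrps22 each in 8.

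On the lower side, Mrps6 fell by 0.99 (SE 0.20, adjusted p = 0.00107), and no Old OSK library reached the lowest Young library. Mrpl58 fell by 0.74 (SE 0.21, adjusted p = 0.00959), with Old OSK replicate 1 at 122 CPM just above the lowest Young library at 121. Mrps18a fell by 0.49, Mrps7 by 0.42, Mrpl49 by 0.39, Mrps17 by 0.29 and Mrpl37 by 0.23. The Mrps7 call (adjusted p = 0.0454) remained in 4 of the 11 fits that left out 1 library and was lost without Young replicate 1, 4, 5 or 7 or Old OSK replicate 1, 2 or 3. It also remained in 5 of the 11 other alternatives. The call of Mrps18a was lost without Old OSK replicate 2, and those of Mrpl49 and Mrpl37 without Old OSK replicate 2 or 3. The Mrps6, Mrpl58 and Mrps17 calls remained in all 11 fits that left out 1 library and in all 11 other alternatives. In those alternatives Mrpl37 kept its call in 10, Mrpl49 in 9 and Mrps18a in 8. Of the RPE markers 11 of 12 were called lower in the same comparison, and 11 of 12 rod markers and 11 of 12 macrophage and microglia markers higher. The remaining macrophage and microglia marker was called lower, and the median log2 fold change of that list was 3.07.

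**Figure D4:**
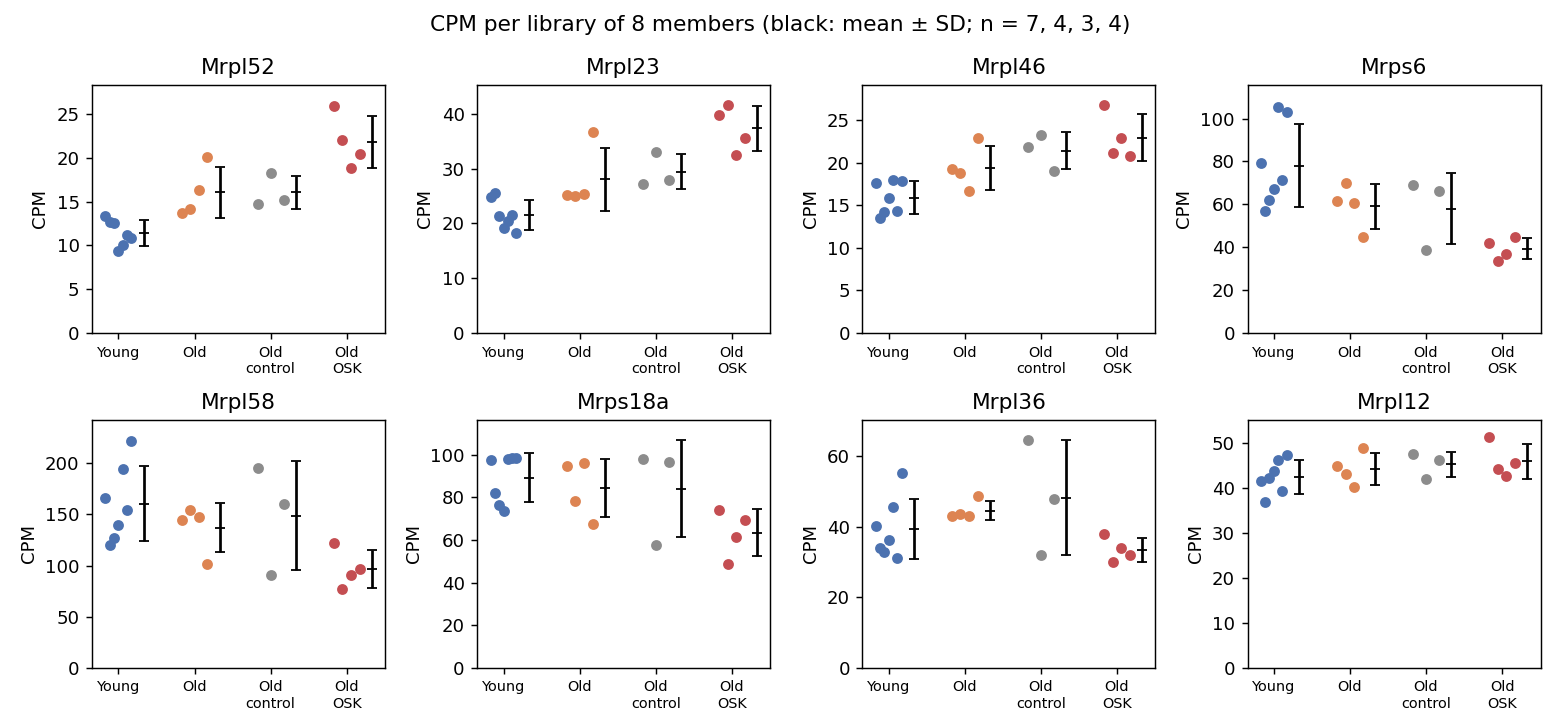
CPM in each library for 8 members, with black marks for the mean and SD of each group (n = 7, 4, 3 and 4). Mrpl52 and Mrpl23 are highest in Old OSK, Mrps6 and Mrpl58 are lowest there with Old control replicate 2 beside the Old OSK values, and Mrpl12 stays between 36.9 and 51.4 CPM in all libraries.

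The 3 members named Mrps18 derive from 1 bacterial protein and are given side by side. In the medians by position above, Mrps18a and Mrps18b were nevertheless counted among the members without a bacterial counterpart. Mrps18a, in the large subunit, ranged from 73.6 to 98.5 CPM in Young and gave 94.8, 78.3, 96.3 and 67.7 in Old. It gave 98.0, 57.8 and 96.5 CPM in Old control and 73.9, 48.7, 61.4 and 69.3 in Old OSK. Old control replicate 2 was again with the Old OSK libraries. The log2 fold change of Old OSK against Old control was -0.41 (SE 0.19, adjusted p = 0.176).

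Mrps18b, a small-subunit protein, was the member with the lowest mean count (173). It gave 5.57 to 7.93 CPM in Young, 6.32, 7.47, 7.94 and 9.83 in Old, 5.05, 5.68 and 7.38 in Old control and 6.87, 8.40, 7.62 and 6.36 in Old OSK. All groups overlapped. Mrps18c, which takes the place of the bacterial protein in the small subunit, gave 5.95 to 9.04 CPM in Young and 6.71, 9.25, 6.97 and 14.9 in Old. It gave 10.7, 13.1 and 9.25 in Old control and 11.9, 11.3, 11.2 and 9.12 in Old OSK, and every library with a vector was above every Young library. Its log2 fold change with age was 0.41 (SE 0.20, adjusted p = 0.146).

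Several members with known roles in translation did not pass in the comparisons of age and OSK. Mrps12, at the decoding centre, had log2 fold changes of 0.001 with age and -0.15 in Old OSK against Old control. Mrpl3, next to the peptidyl transferase centre, had 0.05 and 0.14. Mrpl44, which resembles a ribonuclease III, had 0.23 and 0.004. Mrps22 had 0.13 and 0.05, and Mrps30 had -0.07 and -0.10. None of these 10 values passed the test.

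**Figure D5:**
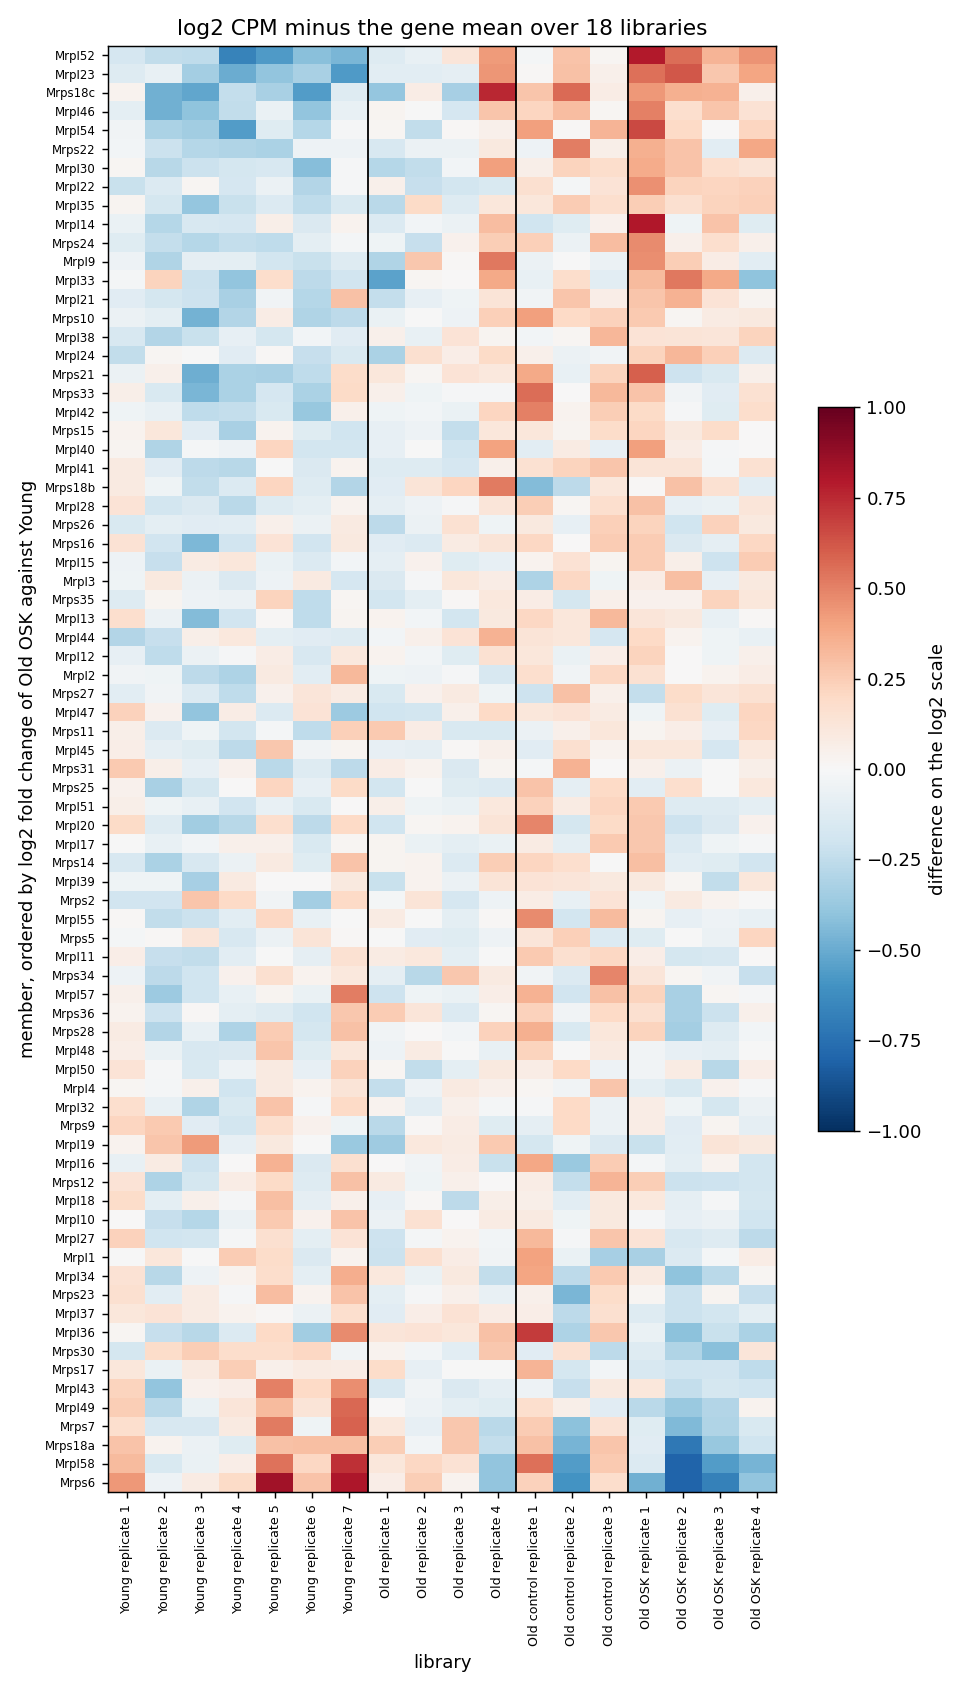
Log2 CPM of each of the 77 members minus its mean over the 18 libraries, members ordered by the log2 fold change of Old OSK against Young, libraries by group (lines separate groups). The outer rows, Mrpl52 and Mrpl23 at the top and Mrpl58 and Mrps6 at the bottom, carry most of the colour, and Old replicate 4 and Old control replicate 2 resemble Old OSK libraries in them.

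Within groups, the deviations of the members were compared pair by pair. Over 2926 pairs of members the median Pearson r of their deviations from the group means was 0.23 over 18 libraries, and 72.9% of the pairs were positive. These points share library and depth, so the values are a description. No such value was computed for other genes, so whether 0.23 is high or low in these libraries is not shown. Mrpl20 (r = 0.92), Mrps28 (0.90) and Mrps16 (0.87) followed the mean of the other members most closely. Mrpl19 (-0.37), Mrps5 (-0.36) and Mrps31 (-0.33) ran against it.

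Few genes of the rest of the mitochondrial translation apparatus passed the test outside Old OSK against Young. Old against Young called none of 5 mitoribosome proteins under other symbols, 15 translation factors, 25 assembly and rRNA modification genes, 20 aminoacyl-tRNA synthetases, 11 genes of mitochondrial DNA transcription and maintenance and 13 mitochondrially encoded RNAs. Among 10 nuclear regulators 1 was called, Myc, which rose by 2.00 on the log2 scale (SE 0.54, edgeR adjusted p = 0.0333). Over the 7 lists this was 1 of 99 genes (1.01%), below the 9.56% of all genes that were called. The lowest adjusted p of the others was that of the assembly helicase Dhx30 (-0.24, adjusted p = 0.0540), followed by Gabpa, the DNA-binding subunit of GABP (-0.23, adjusted p = 0.0548).

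In Old OSK against Old control none of the genes on these 7 lists was called by edgeR, and 12 of 99 (12.1%) had an unadjusted p under 0.05, against 26.3% of all genes. The lowest were Ppargc1a, the coactivator of mitochondrial biogenesis (-0.57, SE 0.14, adjusted p = 0.0588), Dhx30 (-0.37, SE 0.09, adjusted p = 0.0631) and Lrpprc, which stabilises mitochondrial mRNAs (-0.38, SE 0.11, adjusted p = 0.0841). In Old control against Old none was called, and the lowest p was that of Trub2 (0.30, adjusted p = 0.900).

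Old OSK against Young called 26 of the 99 genes of these lists (26.3%), below the 46.4% of all genes. The mitoribosome protein Dap3 was higher (0.50). Of the translation factors Lrpprc (-0.43), Oxa1l (-0.38) and Guf1 (-0.49) were lower. Of the assembly genes Mrm1 (0.52) and Mrm3 (0.52) were higher, and Dhx30 (-0.46), Gtpbp10 (-0.55), Mterf3 (-0.32), Eral1 (-0.31), Ddx28 (-0.34) and Ngrn (-0.25) lower. The synthetases Hars2 (-0.34), Cars2 (-0.25) and Nars2 (-0.35) were lower, as were Tfam (-0.27), which packages mitochondrial DNA, and its polymerase Polg (-0.34).

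Of the regulators Ppargc1a fell by 0.88 and Gabpa by 0.39, while Myc, Pprc1 (0.68) and Gabpb1 (0.37) were higher. Ppargc1a measured 74.7 ± 5.52 CPM in Young (n = 7) and 40.6 ± 2.75 in Old OSK (n = 4). Of the mitochondrial transcripts mt-Nd5 (-0.74), mt-Nd6 (-0.62), mt-Nd2 (-0.48) and mt-Nd4 (-0.45), all subunits of complex I, were lower. These are polyA libraries, which capture mitochondrial RNAs unevenly.

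For the cytosolic ribosome the estimates were further from 0. Its 76 protein genes, a list chosen with the data known, had a median log2 fold change of 0.63 with age. Of them 41 (53.9%) were called higher and 0 lower, while 9.56% of all genes were called. In Old OSK against Old control their median was 0.72, with 0 called by edgeR and 73 (96.1%) at an unadjusted p under 0.05. Of all genes 0.728% were called there and 26.3% had such a p. The members' medians in the same fits were 0.03 and -0.07. The 38 nuclear complex I subunits, whose proteins assemble with those made by the mitoribosome, had medians of 0.10 and -0.17, with 0 called in both and 7 (18.4%) at an unadjusted p under 0.05 in each, against 29.0% and 26.3% of all genes. These medians are descriptions, and the difference between the lists was not tested.

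Mrpl53 is the row that the rule left out, with 0 counts in every library. In GENCODE M21, 88.0% of its exon bases lie on the same strand within Gm42688, which had 23 to 91 counts. The members nearest above the minimum mean of 10 counts were Mrps18b (173), Mrps18c (230) and Mrpl22 (240), far from it. Of the 77 members 21 share exon bases with another gene of the table, 12 of them over 10%. The largest shares were those of Mrps25 with Nr2c2 (69.8%), Mrps34 with Mapk8ip3 (63.4%) and Nme3 (37.0%), and Mrpl19 with Gcfc2 (36.0%). Whether counting used strand is not given in the sources used here, so reads of overlapping genes cannot be told apart.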

How the data were processed

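Raw gene-level counts of the 18 libraries were deposited by the authors in a single table. Per the submitters' processing notes the tools were STAR 2.7.1a and featureCounts 1.6.2, with mouse (GRCm38, mm10) and human builds listed. The annotation and the strand setting are not given in the sources used here. Per the labels' protocols, polyA RNA was amplified as full-length cDNA, so counts include PCR copies and counting error is a lower limit.

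Counts were filtered with filterByExpr (minimum count 10, minimum total 15; 15944 genes left), TMM-scaled and fitted as 4 group means over all 18 libraries with edgeR 4.0.16 (R 4.3.3, quasi-likelihood test, Benjamini-Hochberg over all genes, threshold 0.05). SE is the log2 fold change divided by the square root of F. CPM are library-scaled. DESeq2 1.42.0 was the alternative test. The pipeline was tested on simulated data. Members were located in GENCODE M21.

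Members and lists were chosen with earlier results of these data known. Named genes are the called members with the lowest p (up to 12 per direction), the 5 lowest p per direction with age and with OSK, the 2 lowest for the vector, the 3 most and least variable, members with set roles, and in other lists the called genes or the lowest p. Over all genes, the deviations of library pairs numbered alike in Old OSK and Old control had r = 0.10, 0.42 and 0.34. In the other comparisons pairs numbered alike had r from -0.19 to 0.36. Pairs numbered unlike were not compared, so whether the numbers mark pairs is not shown. The main fit held no replicate block, so its p-values and standard errors leave any such pairing out. The numbers from the titles were used as pairs only in the alternative run with a replicate block.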

Additional observations from a re-analysis of the deposited data

Results flagged for a closer look

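All 77 members and their summed share of counts were examined in the 3 groups of 4 to 10 libraries, 234 sets of values. In 17 of them the highest or lowest library's gap to its nearest neighbour exceeded Dixon's critical value, where chance gives about 1 in 20. Old replicate 4 stood high for 5 members. Mrpl23 measured 36.7 CPM there against 25.1 to 25.3 in the other Old libraries, Mrpl36 48.5 against 42.9 to 43.5 and Mrpl41 39.1 against 33.6 to 34.4. Mrpl42 measured 55.1 against 45.2 to 46.6 and Mrps28 18.5 against 15.3 to 15.8. Mrpl54 was low in Old replicate 2, at 14.1 CPM against 16.9 to 17.3.

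Old OSK replicate 1 stood apart for 6 members. Mrpl22 measured 13.2 CPM there against 11.2 to 11.3 in the other Old OSK libraries, Mrpl43 18.4 against 14.4 to 15.1 and Mrps12 33.5 against 24.3 to 24.8. Mrpl51 measured 60.8 against 46.2 to 47.3 and Mrps14 46.8 against 33.1 to 35.1, while Mrps27 was low at 8.91 against 11.4 to 11.9. Mrpl38 measured 30.9 CPM in Old OSK replicate 4 against 28.8 to 29.1, and Mrpl45 24.0 in Old OSK replicate 3 against 29.0 to 29.3. Among the Young libraries, replicate 7 was high for Mrpl21 (24.2 CPM against 15.8 to 19.3) and Mrpl57 (35.6 against 19.4 to 25.9), and replicate 3 low for Mrpl39 (22.0 against 26.8 to 29.6).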

How the results depend on the processing

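The direction of the members' median was kept in every alternative run for all 4 comparisons. Over single named members, 822 values kept their side of the threshold, 50 lost a call and 18 gained one. The lowest count of a member in any library was 99. In Old against Young, DESeq2 called 2 members and 2452 genes; M in the library name as a covariate gave 0 and 600, libraries without M alone 0 and 445, and leaving out Old replicate 4 and Old control replicate 2 together 0 and 622. With the replicate block 0 members and 0 genes were called, and 0 and 191 in the same libraries without it. Whether the numbers pair these groups is not stated in the labels. Leaving out 1 library gave 0 to 3 members and 393 (without Old replicate 4) to 2140 genes. In Old OSK against Old control, DESeq2 called 1603 genes, the M covariate 58 and the 2 groups alone 2. The replicate block gave 461, and 990 in the same libraries without it. Libraries without M gave 5 members and 1347 genes, with a single control library assumed to vary like the other groups. Leaving out both libraries gave 11 members and 3729 genes. Leaving out 1 library gave 0 to 9 members and 13 (without Old control replicate 1) to 2881 genes (without Old control replicate 2). In Old OSK against Young the block gave 13 members, the same libraries without it 15, libraries without M 15, and leaving out 1 library 15 to 24. The block changed no other count of members called. The last 2 sets of alternatives (libraries without M, both libraries left out) and this comparison were chosen after seeing the data. Except as said, the cause was not tested.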

Other observations

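Within the 7 Young libraries, members were compared with the summed RPE marker level, a relation chosen after the values were seen. Over 77 members, 63 had a positive Pearson r and the median r was 0.52. The relation was not computed over all genes, so these values describe the members without showing a trait particular to them. Member and marker levels were also divided by the same scaling factor of each library, and its part in r was not tested. The lowest exact permutation p was that of Mrps25 (r = 0.95, p = 0.00298; rho = 0.93, p = 0.00675; two-sided, n = 7), which shares 69.8% of its exon bases with Nr2c2. Adjusted over the 77 relations the values were 0.0978 and 0.158, and no member passed. Without Young replicates 2 and 3, the 2 libraries farthest from the median, r was 0.96. Mrps6 gave r = 0.90 (exact permutation p = 0.0109, adjusted p = 0.105; rho = 0.86, p = 0.0238, adjusted p = 0.202) and 0.85 without those libraries. Of the 7 libraries 3 have M in their name, so neither subset holds the 6 libraries that a value within it would need.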
